A study of Mus musculus with 4 samples.

Results

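The response of ear skin of Traf6f/f mice to imiquimod (IMQ) was measured as the difference between 2 of the series' 4 microarrays, the array of IMQ-treated ear minus the array of untreated ear. It was read in 19938 genes, each represented by a probe set that the platform annotation gives a single gene symbol. The mice were 8-week-old females that carried floxed Traf6 alleles (Traf6f/f, here f/f), the reference genotype of a study of mice lacking Traf6 in epithelium (Traf6EKO, here EKO). IMQ cream was put on the ear at 10 mg per day for 2 days, and the control ear is labelled as without IMQ. The labels do not say whether the control ear received a vehicle cream or whether the f/f mice carried a Cre transgene. Total RNA of whole ears was read on Affymetrix Mouse Gene 1.0 ST arrays, 1 array per group. The design text states n = 2 without saying whether this means mice whose RNA was combined for hybridisation. With a single array on each side, values below have no replicate error and carry no p-value, and differences of any size may include differences between ears or mice.

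Imiquimod activates TLR7, a receptor for single-stranded RNA in endosomes of dendritic cells and macrophages, and its cream is widely used to provoke psoriasis-like inflammation of mouse skin. TRAF6 is a ubiquitin ligase that carries signals from Toll-like receptors, IL-1 family receptors and IL-17 receptors to NF-kB and MAP kinases. In psoriasis-like skin, keratinocytes divide faster, switch to wound keratins, build a different cornified envelope and release chemokines and antimicrobial proteins that bring in neutrophils. An ear also holds dermis, fat, thin muscle, cartilage, nerve and hair follicles, so each level is an average over all these layers. Fewer cells of a type, less RNA per cell and a smaller share of a layer in the ear's RNA cannot be told apart in such RNA.

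All values are deposited log2 levels, and a difference is IMQ minus untreated on the log2 scale, so that 1 is 2-fold. As a floor served each array's own median over the named genes, 6.98 on the untreated and 6.93 on the IMQ array. Genes were called higher or lower at 2-fold or more, provided that 1 of both arrays or both reached that floor. Of the 10548 genes above the floor, 403 (3.82%) were higher and 277 (2.63%) lower, which is 2.02% and 1.39% of all 19938 genes. The median difference over all genes was -0.01, with -0.63 at percentile 5 and 0.65 at percentile 95. Of all 19938 genes 48.8% were above 0 and 10176 genes below it. Counts within the lists below are to be read beside these shares and the 3.82% and 2.63% called. Higher genes reached larger sizes than lower ones. At 1.5-fold the directions were nearly even, with 1074 higher (10.2%) and 1005 lower (9.53%). At least 4-fold, 83 were higher (0.787%) and 19 lower (0.18%), and at least 8-fold 43 were higher (0.408%) and 1 lower (0.00948%), which was Retnla. Of the 403 higher genes, 182 were below the floor on the untreated array, and of the 277 lower genes 94 were below it on the IMQ array. Signal there approaches background, and those folds are imprecise. Split into 5 equal groups by mean level, higher genes made up 5.88% of the dimmest group and 4.45% of the brightest, against 2.70% to 3.13% in between, and lower genes between 2.32% and 3.27%.

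The arrays gave a whole-skin profile. The keratinocyte genes Krt5 (12.41 untreated, 12.80 with IMQ) and Krt10 (12.91, 12.98) and the fibroblast genes Dcn (12.72, 12.27) and Col1a1 (10.69, 10.49) were far above the floor on both. Traf6 itself was at 9.51 untreated and 9.30 with IMQ. Tlr7, the receptor of imiquimod, was below the floor on both, at 6.53 and 6.08. All 7 measured B cell genes were below the floor on both arrays.

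**Figure D1:**
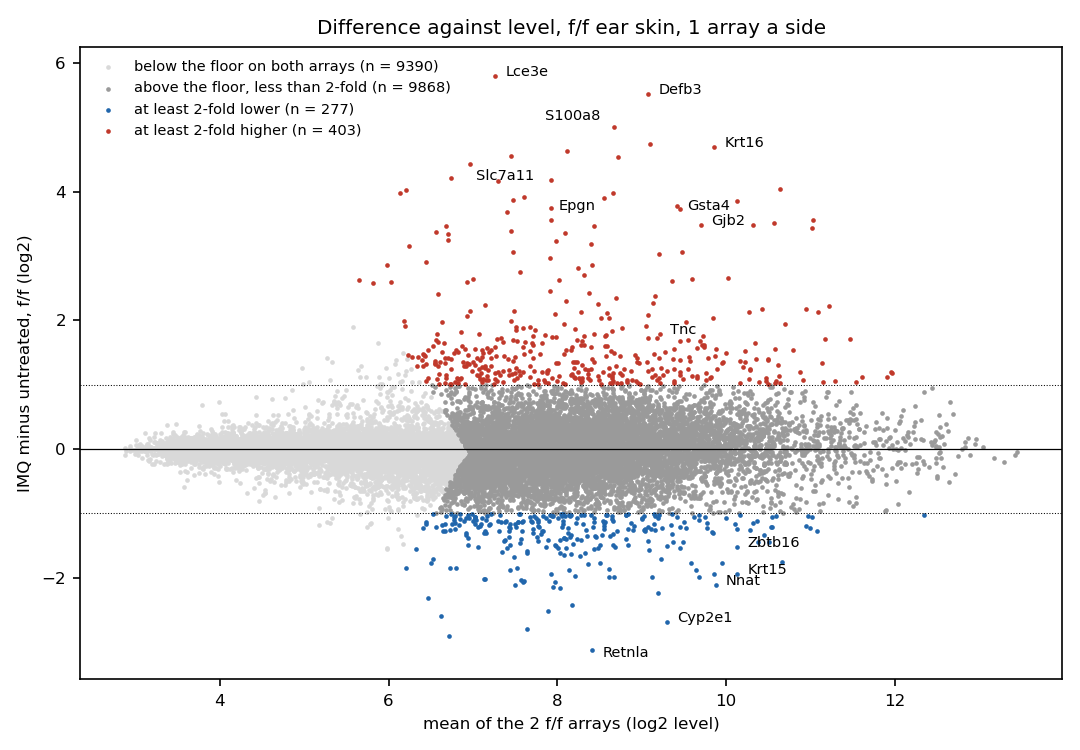
Difference between the IMQ and the untreated f/f array (vertical axis, log2) against the mean level of both (horizontal axis, log2) for 19938 genes, 1 array a side, with dotted lines at 2-fold. The 403 red points extend to 5.80 (Lce3e) and the 277 blue points to -3.13 (Retnla), and both directions occur in each of 5 equal groups of genes by level.

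Genes measured above the floor on both arrays give firmer folds than the others, since neither level lies below the floor. Of 9390 such genes, 221 (2.35%) were higher and 183 (1.95%) lower. The 20 with the largest folds held wound keratins, cornified envelope genes, the kallikrein Klk6, the connexin Gjb2, the cytokine Il1f6, Lcn2, the gasdermin Gsdmc and the IkB protein Bcl3, which are described with their families, and the following genes. Gsta4, a glutathione transferase that removes lipid peroxidation products, went from 7.53 to 11.30 (13.7-fold). Prss27, a membrane serine protease, stood at 7.94 and 11.01 (8.36-fold), and Pla2g4e, a phospholipase of the cytosolic A2 group, at 7.69 and 10.72 (8.15-fold). Aldehyde oxidase Aox4 was 6.10-fold higher, the sodium-glucose cotransporter Slc5a1 5.22-fold, the monocarboxylate transporter Slc5a8 5.11-fold and the spermine oxidase Smox 4.83-fold. Chil1, a secreted chitinase-like protein, was already bright without IMQ and reached 12.33 from 10.10 (4.68-fold). Below the floor without IMQ, the cystine transporter Slc7a11 went from 5.83 to 10.01 and lactoperoxidase Lpo from 6.06 to 9.79.

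The leading lower genes included enzymes and carriers of fat and small molecules and muscle proteins. Cyp2e1, a cytochrome P450 that oxidises small molecules, went from 10.64 to 7.96 (6.40-fold lower), and Ces1d, a carboxylesterase of fat and liver, from 10.31 to 8.08 (4.70-fold). Nnat, neuronatin, was 4.34-fold lower. The plasma retinol carrier Rbp4 (3.68-fold), the lipid transporter Abca5 (3.64-fold), the carnitine synthesis enzyme Bbox1 (3.42-fold) and the muscle thin-filament protein Tmod4 (3.68-fold) followed. Among genes that reached the background range with IMQ were Inmt, an amine methyltransferase (9.15 to 6.63), Mstn, the muscle growth inhibitor myostatin (8.15 to 6.13), and Mrgprb3, a Mas-related receptor (8.63 to 6.56).

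**Figure D2:**
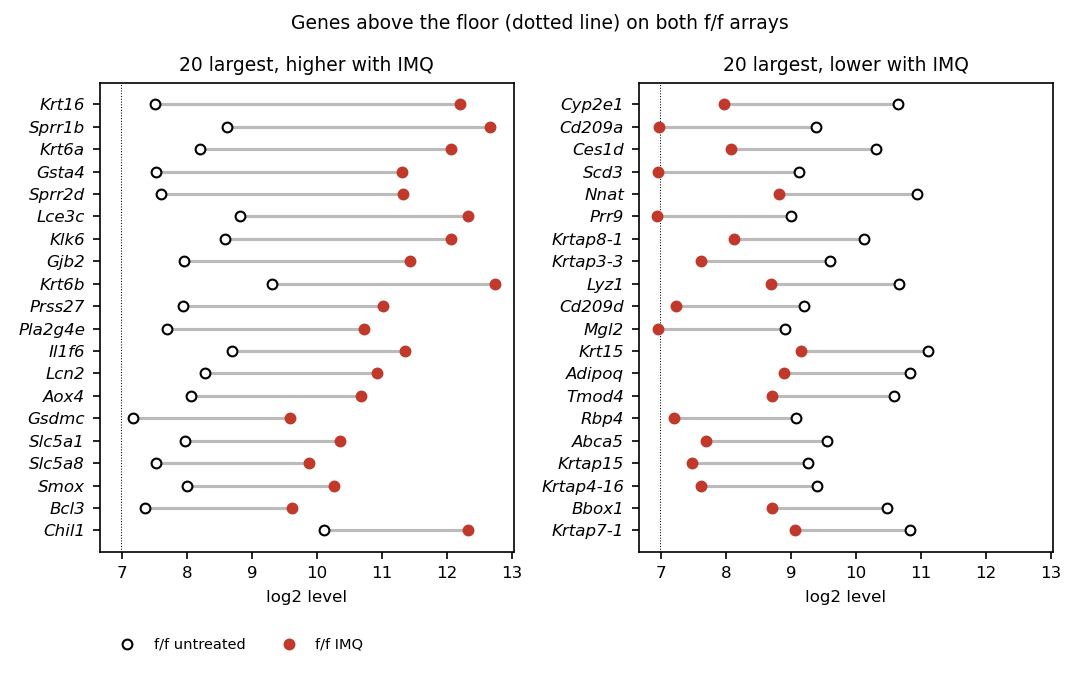
Log2 level on the untreated (open circles) and the IMQ array (red circles) of f/f ear for the 20 genes with the largest differences in each direction among those above the floor on both arrays, 1 array per circle. Higher genes span Krt16 (4.69) to Chil1 (2.23) and lower genes Cyp2e1 (-2.68) to Krtap7-1 (-1.77).

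Within the epidermis, wound keratins and some branches of the cornified envelope were higher. Of the 5 wound keratins measured, Krt16, Krt6a, Krt6b and Krt17 were at least 2-fold higher and Krt75, of the companion layer of the follicle, was at -0.12. Krt17 was already at 11.38 without IMQ and reached 12.56 (2.26-fold). The 10 keratins of normal epidermis had a median of 0.23. The suprabasal Krt1 (0.89) and basal Krt14 (0.73) had larger differences than the suprabasal Krt10 (0.08). Krt77 was at -0.94, short of 2-fold, and Krt15, a keratin of resting basal and bulge cells, went from 11.10 to 9.16 (3.84-fold lower). Krt79, of the follicle's upper duct, was at 1.06, or 0.96 after quantile normalization.

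The late cornified envelope (LCE) genes divided by group. All 5 measured LCE3 genes, which are induced in barrier repair, were above 0, with a median of 3.51 and 4 at least 2-fold higher. Lce3c was measured on both arrays, at 8.81 and 12.32 (11.4-fold), while Lce3b stayed below the floor at 4.63 and 6.52. The 13 LCE1 genes, which are made in normal epidermis, had a median of 0.06, whose sign turned after cyclic loess and quantile normalization, and ranged from -0.16 (Lce1l) to 0.78 (Lce1g), with none at 2-fold. The smallest LCE3 difference, 1.89, was that of Lce3b. LCE3 genes are near-identical, and their probe sets may read one another's transcripts.

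Small proline-rich (SPRR) proteins are cross-linked into the cornified envelope of stressed epidermis. All 13 measured SPRR genes were above 0, at a median of 3.72, and 9 were at least 2-fold higher. Sprr1b went from 8.62 to 12.66, Sprr2d from 7.60 to 11.32 and Sprr2e from 6.46 to 10.99. Sprr1a was bright on both arrays (11.96 and 12.91) and below 2-fold. Sprr4 (0.23) differed little, and Sprr3, of oral and oesophageal lining, was below the floor on both arrays. The 9 SPRR2 genes had a median of 3.98. Like the LCE3 genes they are near-identical, so values of single SPRR2 genes may not be separate.

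The SPRR promoters are shown because 9 of the 13 genes were at least 2-fold higher and because AP-1, a factor of the Fos and Jun families, is a known regulator of it. Promoter sequences came from RefSeq (GRCm38.p6), 250 bases before the annotated start, and 15563 of the 19938 genes were matched. The palindrome of AP-1 (TGANTCA) was present in 9 of 11 matched SPRR promoters (81.8%) and a TATA box (TATAAA) in 10 of 11 (90.9%), both strands being searched. Sprr3 and Sprr4 held no such AP-1 palindrome. Sprr1a and Sprr2k, which were not called higher, held both motifs. Sprr2g and Sprr2j-ps, both called higher, had no matched promoter. Of all promoters of named genes, 6.09% held the AP-1 palindrome and 11.2% the TATA box. Among the 328 matched genes at least 2-fold higher the shares were 9.15% and 14.3%, and among the 214 matched lower genes 7.48% and 24.8%. The SPRR promoters are related sequences, and a match is only a run of letters. Those of Sprr2e (chr3:92351893-92352142, plus strand) and Sprr1b (chr3:92438780-92439029, minus strand) follow, 5′ to 3′ with the AP-1 palindrome and then the TATA box in capitals, and that of S100a8 (chr3:90668821-90669070, plus strand) with its TATA box, since S100a8 had the third largest difference of all.
Sprr2e: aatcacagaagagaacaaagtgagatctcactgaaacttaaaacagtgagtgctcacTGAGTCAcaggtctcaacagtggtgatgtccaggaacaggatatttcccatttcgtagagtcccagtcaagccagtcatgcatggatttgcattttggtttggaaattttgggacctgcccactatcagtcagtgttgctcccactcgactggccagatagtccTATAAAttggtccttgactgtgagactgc
Sprr1b: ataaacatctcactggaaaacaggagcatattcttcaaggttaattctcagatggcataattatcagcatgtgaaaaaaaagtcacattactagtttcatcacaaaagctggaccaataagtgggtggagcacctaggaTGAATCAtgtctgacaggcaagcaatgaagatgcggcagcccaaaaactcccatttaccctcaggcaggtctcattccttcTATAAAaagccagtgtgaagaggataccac
S100a8: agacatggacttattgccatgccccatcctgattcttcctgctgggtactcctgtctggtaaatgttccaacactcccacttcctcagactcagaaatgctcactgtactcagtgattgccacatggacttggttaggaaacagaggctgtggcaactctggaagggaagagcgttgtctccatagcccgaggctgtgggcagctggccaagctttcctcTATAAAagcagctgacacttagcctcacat

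In Sprr2e the palindrome began 193 bases and the TATA box 29 bases before the start, and in Sprr1b 111 and 30 bases. The TATA box of S100a8 began 30 bases before it. The NF-kB consensus, GGG and CC with any 5 bases between them, is loose and was in 64.0% of higher, 46.7% of lower and 53.2% of all named genes' promoters, and the STAT palindrome TTCNNNGAA in 6.71%, 6.54% and 6.71%.

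Among the 18 other envelope and filaggrin-type genes, 6 were at least 2-fold higher and 2 lower (median 0.43). Rptn, repetin, went from 6.15 to 9.71. The cross-linking transglutaminases Tgm3 (8.91 to 10.52), Tgm5 (7.64 to 8.95) and Tgm1 (9.66 to 10.90) and the filaggrin-processing caspase Casp14 (8.94 to 10.52) were 2.36-fold to 3.07-fold higher, and cornifelin (Cnfn) 2.30-fold. The main structural proteins differed less. Loricrin (Lor) was at -0.18, hornerin (Hrnr) at 0.55, involucrin (Ivl) at 0.94 and filaggrin 2 (Flg2) at -0.99. The 2 lower genes, Tchh (-1.30) and Crnn (-1.11), encode trichohyalin of the inner root sheath and cornulin.

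Enzymes that make the lipids of the skin barrier were mostly above 0 but below 2-fold. Of 21, 18 were above 0 with a median of 0.54, and Cers3, the ceramide synthase for ultra-long acyl chains, passed 2-fold (10.07 to 11.10). Sdr9c7 (0.97) and the lipoxygenase Alox12b (0.96), which act on the same ceramides, and Sptlc2 (0.92), of the first step of sphingolipid synthesis, followed.

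Cell contacts divided by kind. Of the connexins, which form gap junctions, Gjb2 went from 7.96 to 11.43 (11.1-fold), Gjb6 from 5.94 to 9.01 and Gja1 from 9.80 to 11.35, while Gjb5 was at -0.06. Tight junction genes stayed below 2-fold, with Cldn4 at 0.39 and Cldn1 at -0.21. Of 11 desmosome genes (median 0.45), the cadherins Dsg3 (1.40), Dsg1b (1.14) and Dsc2 (1.51) were at least 2-fold higher, whereas desmoplakin Dsp (0.15) and Dsc3 (0.02) hardly differed. Hemidesmosome and basal integrin genes, which hold the epidermis to its basement membrane, had a median of 0.04. Only Itga3 (1.24) of these 13 passed 2-fold, and dystonin (Dst), a hemidesmosome linker, was at -0.89.

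Secreted proteases and their inhibitors differed by family. Kallikreins are serine proteases that free corneocytes from the skin surface, and all 11 measured were above 0, with a median of 1.26 and 7 at least 2-fold higher. Klk6 went from 8.58 to 12.06 and Klk13 from 6.70 to 10.17. Klk9 (2.17), Klk10 (2.13), Klk8 (1.76), Klk12 (1.26) and Klk11 (1.23) followed. The main desquamation enzymes Klk5 (0.72) and Klk7 (0.67) and their inhibitor Spink5 (0.00) differed less, while another Kazal-type inhibitor, Spink7, went from 5.09 to 8.33. Of 8 stefins and cystatins, inhibitors of cysteine proteases, Csta3 (4.63 to 8.84), Stfa3 (6.60 to 10.51) and Stfa2 (5.56 to 9.24) were at least 2-fold higher. Serpins, which trap serine proteases, had a median of 0.07 over 22 genes and lay on both sides of 0. Serpinb6c (5.68 to 8.31) and Serpinb11 (6.44 to 7.98) were higher, and Serpina3b went from 9.04 to 6.25, below the floor.

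Antimicrobial proteins gave some of the largest folds. Of 20 genes, 10 were at least 2-fold higher and 2 lower (median 0.90). The beta-defensins Defb3 (6.32 to 11.84), Defb4 (5.18 to 9.74) and Defb14 (4.98 to 7.89) started below the floor. Defb6 was bright on both arrays (10.46 and 11.81), and Defb1, made constitutively by many epithelia, was at 0.05. The iron-binding Lcn2 (8.27 to 10.91), the protease inhibitor Slpi (6.43 to 9.40) and the peptidoglycan-binding Pglyrp3 (7.50 to 9.53) and Pglyrp4 (7.60 to 9.63) were higher too. Camp, Reg3g, Reg3b and Ltf, other antimicrobial genes, were below the floor on both arrays. Of the lysozymes, Lyz1 was lower (10.66 to 8.68) and Lyz2 was at -0.72, short of 2-fold. Of 13 S100 genes, which encode calcium-binding proteins, the calprotectin genes S100a8 (6.17 to 11.18) and S100a9 (6.73 to 11.47) stood far from the others. S100a7a (1.05) and S100a16 (1.05, or 0.94 after quantile normalization) were just past 2-fold, and the list median was 0.27.

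Of the EGF receptor system, which drives keratinocyte growth, several ligands were far from 0 and receptors near it. Epgn (epigen) went from 6.67 to 10.65 (15.8-fold), Hbegf from 6.96 to 9.66 (6.53-fold) and Ereg from 8.40 to 9.45 (2.08-fold). Nrg1, a ligand of the receptor's relatives, was at 1.32 and Tgfa at 0.93. Betacellulin (Btc) was lower, from 8.21 to 6.95. The receptors Egfr (0.04), Erbb2 (0.23) and Erbb3 (0.15) lay within 0.23 of 0. Areg was not analysed here.

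Some called genes lay beside each other in the genome. Among 19854 genes placed in RefSeq order (GRCm38.p6), 70 of the 403 higher genes (17.4%) and 43 of the 277 lower genes (15.5%) had a direct neighbour with the same call, against 3.88% and 2.65% of all placed genes that had a higher or a lower gene beside them. The higher genes formed 10 runs of at least 3 neighbours, together 40 genes. They were Sprr2b to Sprr2j-ps (8 genes), Klk13 to Klk8 (6 genes), S100a7a, S100a8, S100a9, Pglyrp4 and Pglyrp3 (5 genes), and runs of 3 in the LCE3, stefin, beta-defensin, IL-36 and IL-1 clusters and among histone genes. The histone runs, which are on no list and were singled out after their values were seen, were H2bc3, H2ac4 and H1f1 (1.54 to 1.92) and H2bc14, H2ac15 and H1f5 (1.19 to 1.88). The lower genes formed 4 runs, 3 of them of keratin-associated hair genes, the longest with 14 genes from Krtap3-1 to Gm11567. The other was Cd209a, Cd209e and Cd209d, lectin genes of macrophages and dendritic cells. In the epidermal differentiation complex, taken as the 62 measured genes from S100a10 to S100a1, 20 were higher and 3 lower, with a median of 0.33. Most runs are families of similar sequence, whose probe sets may cross-read.

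**Figure D3:**
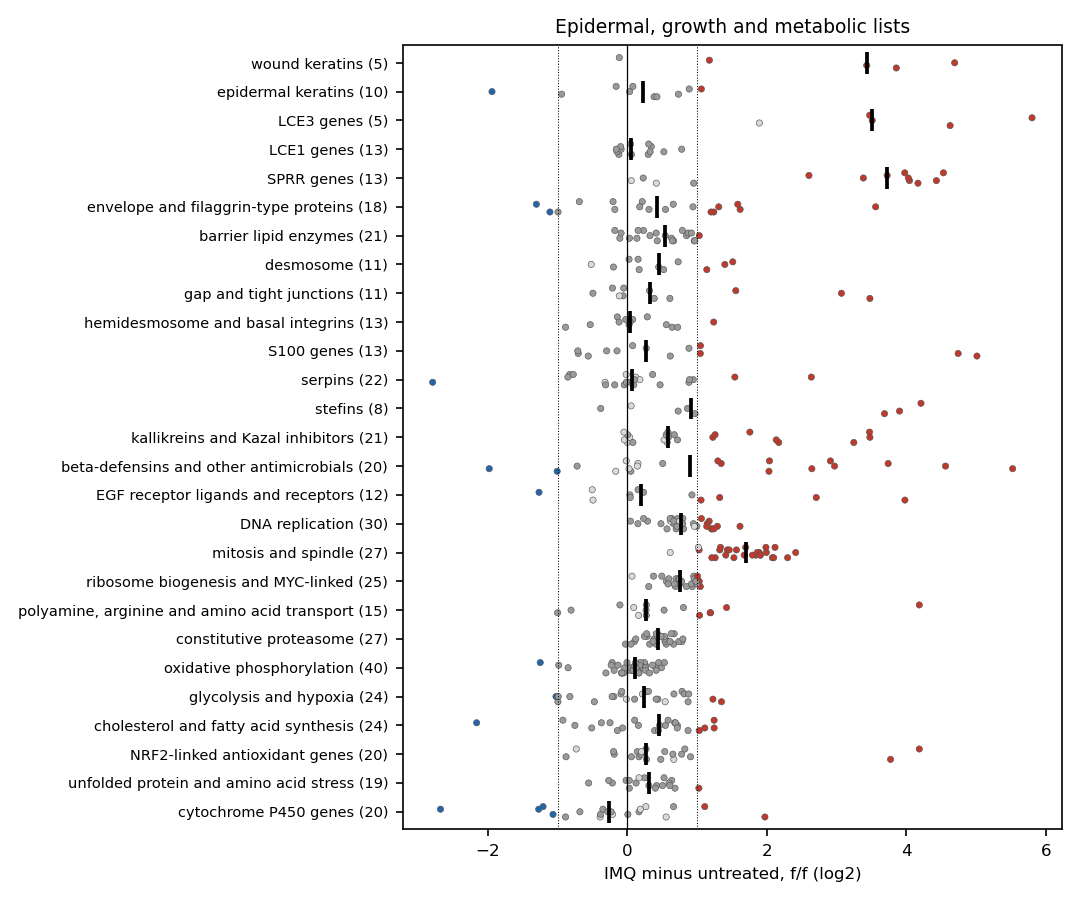
Difference between the IMQ and the untreated f/f array (log2) of each member of the epidermal, growth and metabolic lists, with the number measured in brackets. Points are genes (red and blue at least 2-fold, dark grey less, light grey below the floor on both arrays), bars are list medians and dotted lines mark 2-fold. Bars of the LCE3, SPRR and wound keratin lists lie between 3.43 and 3.72, and all 27 mitosis genes are above 0.

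Genes of dividing cells lay above 0, with a larger median for mitosis than for DNA replication. Of 27 mitosis and spindle genes all were above 0 and 25 at least 2-fold higher, with a median of 1.70. The mitotic kinase Cdk1 (7.73 to 9.57), the cyclins Ccna2 (7.53 to 9.64) and Ccnb2 (8.04 to 10.12) and the proliferation marker Mki67 (8.10 to 10.00) were above the floor on both arrays. The mitotic kinase Plk1 (6.96 to 9.25) was just below it on the untreated array. The spindle checkpoint kinase Bub1 had the largest difference (2.41) but started below the floor. Top2a, a topoisomerase of dividing cells, was at 1.86, while its other probe set was at 0.21. Of 30 replication genes all were above 0 and 9 at least 2-fold higher (median 0.77), led by the ribonucleotide reductase gene Rrm2 (7.47 to 9.09). The 6 subunits of the MCM helicase, which opens DNA at replication forks, ranged from 0.64 (Mcm6) to 1.29 (Mcm3), with a median of 1.06.

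Genes of ribosome assembly and the proteasome showed smaller differences, nearly all above 0. All 25 ribosome biogenesis genes were above 0 (median 0.75), 4 of them at least 2-fold higher, namely the nucleolar proteins Nop58 (1.05), Dkc1 (1.03), Bop1 (1.02) and Pno1 (1.01). Myc, the factor that drives many of them, was at 0.69. Of 27 subunits of the constitutive proteasome, which degrades ubiquitinated proteins, 26 were above 0 at a median of 0.43 and none reached 2-fold. The interferon-inducible immunoproteasome and antigen processing list had a median of 0.04, with its catalytic subunits Psmb8 (0.21) and Psmb9 (0.03) close to 0. The 15 genes of polyamines, arginine and amino acid transport had a median of 0.27. Ornithine decarboxylase Odc1 (7.76 to 8.79) and spermidine synthase Srm (9.17 to 10.36) passed 2-fold, as did the amino acid transporters Slc7a5 (1.42), Slc7a1 (1.19) and Slc7a11. The transporters Slc1a5 (10.35 to 9.35) and Slc7a2 (-0.81) were below 0 and short of 2-fold. Arginase 1 (Arg1) and Nos2, which compete for arginine, were below the floor on both arrays. Asns, asparagine synthetase, was the 1 member of the unfolded protein and amino acid stress list past 2-fold (1.02).

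The arms of lipid synthesis differed in their medians. All 12 measured genes of cholesterol synthesis were above 0 (median 0.72), with squalene epoxidase Sqle (8.93 to 10.17), Idi1 (8.50 to 9.74), Cyp51 (8.65 to 9.76) and lanosterol synthase Lss (8.44 to 9.47) at least 2-fold higher. The 9 genes of fatty acid synthesis and desaturation had a median of -0.37, with 7 below 0 and 1 of them at least 2-fold lower. The 2 above 0 were Scd2 (0.46) and Acly (0.45). Scd3, a desaturase of sebaceous glands, went from 9.12 to 6.96, the acetyl-CoA carboxylase Acacb was at -0.75 and the fatty acid synthase Fasn at -0.37. The sebaceous list (16 genes, median 0.18) likewise held both Fabp5 (10.02 to 12.15), a fatty acid carrier also made by keratinocytes, and Elovl3 (1.57) above 0 and Scd3 and Pparg (-0.97) below it.

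Energy metabolism differed by pathway. The 37 oxidative phosphorylation genes without muscle isoforms had a median of 0.12 and none reached 2-fold. The muscle isoforms of energy genes, Cox6a2 (-0.85), Cox7a1 (-0.98), Cox8b (-1.25), Eno3 (-0.82) and Pfkm (-0.99), were all 5 below 0. Of 24 glycolysis and hypoxia genes (median 0.24), the glucose transporter Slc2a1 (9.55 to 10.90) and Pgam1 (9.67 to 10.90) were at least 2-fold higher, and Pfkfb3 (-1.02), which makes an activator of phosphofructokinase, was lower. Hif1a (0.88), the hypoxia factor, and Pgk1 (0.87) lay above 0 and Bnip3 (-0.99) below it, all short of 2-fold. Of 20 NRF2-linked antioxidant genes (median 0.27), Slc7a11 and Gsta4 passed 2-fold, and the classical targets Hmox1 (0.06), Gclm (0.14) and Nqo1 (0.67, below the floor on both arrays) did not. Of 20 cytochrome P450 genes, 2 were at least 2-fold higher and 4 lower (median -0.26). The oxysterol hydroxylase Cyp7b1 went from 5.65 to 7.62, and the sterol 27-hydroxylase Cyp27a1 from 8.47 to 7.19.

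Several cytokines of the IL-1 family were higher. Of 16 genes 7 were at least 2-fold higher (median 0.69). Il1b went from 5.54 to 9.41, Il1a from 8.82 to 10.86 and the alarmin Il33 from 8.92 to 10.54. The annotation lists the IL-36 cytokines, which act in psoriasis, by older symbols. Il1f6 (IL-36 alpha) went from 8.70 to 11.35, Il1f8 (IL-36 beta) from 8.50 to 9.91 and Il1f9 (IL-36 gamma) from 10.37 to 11.44. Il1f9 was bright on both arrays, and its difference of 1.07 was 0.96 after quantile normalization. Of the antagonists, Il1rn (1.08) was past 2-fold and Il1f5, at 0.90, was not. The cytokine Il18 was at -0.10. The IL-36 receptor Il1rl2 (0.49), the shared chain Il1rap (-0.21) and the decoy receptor Il1r2 (-0.53) stayed below 2-fold.

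Other signalling lists had medians between -0.01 and 0.31, with a few members far from them. Of 21 IL-17 and IL-23 genes (median 0.27), the epithelial cytokine Il17c (6.11 to 7.26) and the ribonuclease Zc3h12a (7.86 to 9.30), a brake on this pathway, were at least 2-fold higher. Il17a, Il17f, Il23a and Il12b were below the floor on both arrays. Of 21 IL-20, IL-6 and STAT3 genes, Bcl3 (7.35 to 9.61) and the feedback inhibitor Socs3 (7.56 to 8.58, its other probe set at a difference of 0.33) were higher and the receptor chain Il20ra (9.73 to 8.49) lower. Stat3 was at 0.78, and the cytokines Il6, Il19, Il20 and Il24 were below the floor on both arrays. Among 15 NF-kB subunits and inhibitors, Bcl3, a nuclear IkB protein, was the 1 past 2-fold, and Nfkbiz (0.80), Tnfaip3 (0.53) and Nfkbia (0.36) were between 0.36 and 0.80. Of 22 AP-1 and immediate-early genes, Fosl1 (7.06 to 8.81), Junb (7.26 to 8.27), Ier3 (1.21) and the ERK phosphatase Dusp6 (1.15) were at least 2-fold higher, and Jun (0.09) and Fosb (-0.10) were near 0.

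Toll-like receptors and adaptors had a median of 0.13 over 23 genes. Tlr13, a receptor of bacterial ribosomal RNA, passed 2-fold (7.11 to 8.23), the adaptor Myd88 was at 0.98 and the inhibitory kinase Irak3 at 0.78. In prostaglandin synthesis, both inducible steps were higher, Ptgs2 from 6.36 to 9.59 and Ptges from 9.80 to 11.19, while the list of 25 had a median of -0.01, whose sign turned under every other scaling. The epidermal lipoxygenase Alox12e was lower (11.14 to 9.93). Of the gasdermins, pore-forming proteins, Gsdmc (7.16 to 9.59), Gsdmc2 (1.56) and Gsdma (1.27) were at least 2-fold higher and Gsdmd was below the floor on both arrays.

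Chemoattractant genes included several past 2-fold, a size that 3.82% of all genes above the floor reached upward. Of 14 genes of the neutrophil chemokine axis, 7 of them above the floor, Cxcl2 (4.66 to 7.81) and the receptors Cxcr2 (6.18 to 8.94) and Csf3r (5.70 to 7.16) were at least 2-fold higher, whereas Cxcl1 was at 0.71 and Csf3 below the floor on both arrays. Of 26 other chemokines, 18 of them above the floor, Ccl20 (6.81 to 10.00), which draws CCR6-bearing lymphocytes, and the monocyte attractants Ccl3 (6.84 to 9.65), Ccl7 (7.69 to 9.46) and Ccl2 (7.11 to 8.86) were higher. The CXCR3 ligands Cxcl9 (-0.10) and Cxcl10 (-0.11) and the list of 27 interferon-induced genes (median 0.07, 0 at 2-fold) were near 0, with Oas3 at 0.95 and Gbp4 at -0.76 as its ends. Of 22 acute-phase and complement genes (median -0.17), Saa3, a local serum amyloid, went from 5.64 to 9.56. No other member passed 2-fold, C1qa (-0.28) and Cfb (0.58) among them.

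Some genes of inflammatory myeloid cells were higher and some of resident macrophages lower. Of 21 neutrophil and inflammatory myeloid receptors (median 0.72), the amplifying receptor Trem1 (4.56 to 7.41), Clec4e (4.53 to 7.10), the fungal receptor Clec7a (6.31 to 7.41) and the integrin Itgam (7.73 to 8.81) were at least 2-fold higher. The other 17 did not pass, and Ptafr (-0.58) and Fcgr3 (-0.11) were among 5 below 0. Granule proteins had a median of 0.04, and Mpo, Elane, Ctsg and Ltf, stored in neutrophil granules, were below the floor on both arrays. The 1 granule gene past 2-fold was Lcn2, which keratinocytes also make. Of 19 resident macrophage and alternative activation genes none was higher and 6 were at least 2-fold lower (median -0.50). Retnla, a marker of alternatively activated macrophages, went from 9.98 to 6.85, Cd209a from 9.39 to 6.97, Cd209d from 9.20 to 7.23 and the lectin Mgl2 from 8.90 to 6.95. F13a1 (-1.20) and Cd163 (-1.14) were lower too. The resident macrophage genes Lyve1 (-0.42), Folr2 (-0.40), Cd209f (-0.29), Cbr2 (-0.28), Stab1 (-0.02) and Pf4 (-0.02) were nearer 0, as were Mrc1 (-0.30), Adgre1 (0.11) and Cd68 (0.19), which most macrophages express.

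MHC class II genes, which present peptides to helper T cells, lay below 0 without reaching 2-fold. The MHC class II genes H2-Aa (11.60 to 10.63), H2-Ab1 (11.32 to 10.39), H2-Eb1 (10.94 to 10.12) and H2-DMa (9.47 to 8.87) and the invariant chain Cd74 (11.57 to 10.72) had a median of -0.84, and H2-Aa reached -1.09 after quantile normalization. The whole list of 18 Langerhans, dendritic and MHC class II genes had a median of -0.17, with the costimulatory gene Cd80 (0.90) and the migration receptor Ccr7 (0.42) above 0. Antigen processing genes of the class I pathway were near 0, with Tap1 at -0.07 and B2m at -0.14. Cd207 of Langerhans cells, Itgax and Ciita were below the floor on both arrays. Of 17 lymphoid genes 1 passed 2-fold, the T cell receptor chain Cd3g (8.33 to 7.09), with Cd3e at -0.44 and Cd3d, Cd4 and Cd8a below the floor on both arrays. Mast cell genes had a median of -0.44 over 12. The proteases Cpa3 (-0.83) and Mcpt4 (-0.44) and the receptor Kit (-0.57) were below 0, and the histamine-making Hdc, also made by myeloid cells, went from 7.06 to 8.53.

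**Figure D4:**
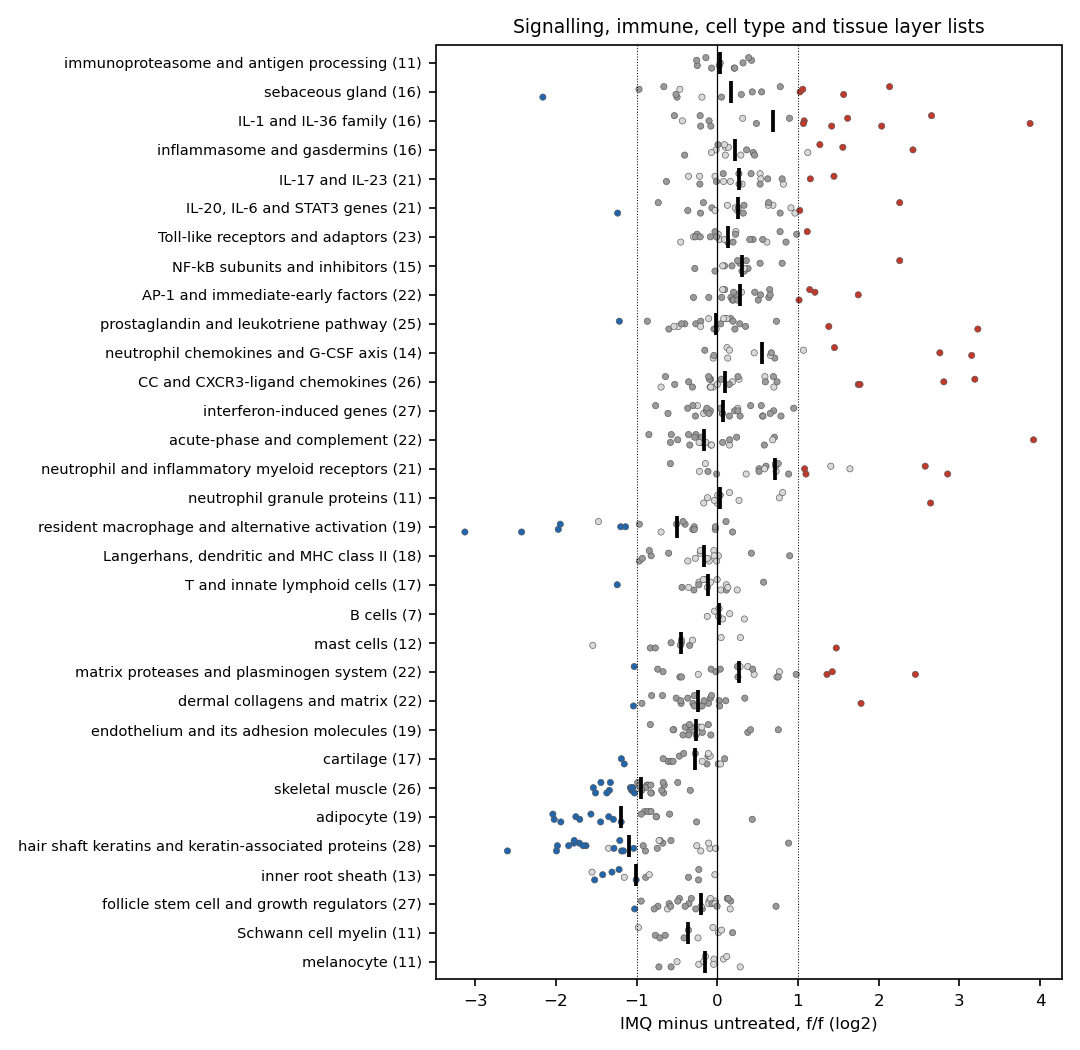
Difference between the IMQ and the untreated f/f array (log2) of each member of the signalling, immune, cell type and tissue layer lists, with the number measured in brackets and marks as in the plot of epidermal lists. Bars of the muscle (-0.95), adipocyte (-1.19) and hair shaft (-1.10) lists, and that of the inner root sheath (2.01-fold lower), lie farthest below 0, and single red points stand apart in lists whose bar is near 0.

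In the dermis, genes of the matrix and its proteases lay on both sides of 0. The 22 matrix proteases, their inhibitors and plasminogen system genes had a median of 0.27, with 14 above 0, 3 at least 2-fold higher and 1 lower. Timp1, an inhibitor of metalloproteinases, went from 6.69 to 9.15, the collagenase Mmp13 from 5.64 to 7.07 and Adam8 from 7.55 to 8.91, while Timp4 was at -1.03, Mmp2 at -0.46, Timp3 at -0.74 and Timp2 at -0.67. Of 22 collagen and matrix genes (median -0.24), tenascin C (Tnc), a matrix protein of wounds, was higher (8.32 to 10.10) and dermatopontin (Dpt) lower (11.11 to 10.07). The fibrillar collagens Col1a1 (-0.20), Col1a2 (-0.30) and Col3a1 (0.11) stayed within 0.30 of 0. Endothelial genes had a median of -0.26 over 19 with none at 2-fold, the leukocyte adhesion genes Icam1 (0.41) and Sele (0.38) lying above 0 and Vcam1 below the floor on both arrays.

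Genes of the deeper layers and of the follicle were lower as groups. All 26 skeletal muscle genes were below 0 (median -0.95) and 11 at least 2-fold lower. The fast-fibre genes Actn3 (10.22 to 8.69), Myoz1 (10.06 to 8.55) and Pvalb (11.10 to 9.66) differed most, and the sarcomere actin Acta1 (-0.66) and light chain Myl1 (-0.49) less. Of 19 adipocyte genes 10 were at least 2-fold lower (median -1.19). The hormones Lep (8.14 to 6.12), Adipoq (10.83 to 8.89) and Retn (11.53 to 9.78) and the lipid droplet protein Plin1 (9.87 to 8.30) were among them, whereas the lipase Pnpla2 was at -0.94. Cartilage genes had a median of -0.27 over 17, with Cnmd (-1.19) and Ucma (-1.15) at least 2-fold lower and the main collagen Col2a1 at -0.13. Schwann cell (median -0.36) and melanocyte (-0.15) genes held no member at 2-fold.

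Of 28 hair shaft genes 14 were at least 2-fold lower (median -1.10), led by Krtap6-1 (7.92 to 5.32), Krtap8-1 (10.12 to 8.13) and Krtap3-3 (9.60 to 7.62), which encode matrix proteins of the shaft. For the 13 inner root sheath genes the median was 2.01-fold lower, with the keratins Krt25 (9.45 to 7.93), Krt27 (8.73 to 7.32) and Krt71 (9.68 to 8.46) among 5 at least 2-fold lower. Regulators of the follicle differed less (27 genes, median -0.20). The Wnt inhibitor Wif1 was at -1.02 and Bmp4 at -0.94, while Lef1, Shh and Hoxc13, active in growing follicles, were below the floor on both arrays. These hair lists were above 0 in the EKO pair of arrays, at medians of 0.67 and 0.53. Hair genes vary with the hair cycle, and the labels do not give the stage of these ears.

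Genes of the circadian clock, which many cells run on a daily cycle, were lower in part. Of 17 measured, 14 were below 0 and 2 at least 2-fold lower (median -0.60). Of all 19938 genes 10176 were below 0, and 2.63% of those above the floor were at least 2-fold lower. A group of 10 output and feedback genes was all below 0, with a median of -0.78. It held Dbp, Tef, Hlf, Nr1d1, Nr1d2, Per1, Per2, Per3, Bhlhe41 and Ciart, and left out the feedback genes Cry1 and Cry2. Bhlhe41 went from 7.32 to 6.22, Per3 from 8.79 to 7.77, Hlf from 9.81 to 8.83 and Dbp from 9.27 to 8.31. The positive arm hardly differed, with Arntl at -0.12 and Clock at 0.24, and Nfil3, which opposes Dbp and Tef, was at 0.35. The labels do not give the hour at which either ear was taken.

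Clock factors bind E-boxes (CACGTG), and 5 of the 15 matched clock promoters (33.3%) held this hexamer, against 7.04% of all named genes' promoters and 7.48% of those of lower genes. They were Per1, Cry1, Tef, Bhlhe41 and Ciart. The output genes Per3, Hlf, Dbp, Nr1d1 and Nr1d2 were below 0 too and held no such hexamer. The promoters of Per1 (chr11:69098699-69098948, plus strand), Bhlhe41 (chr6:145865421-145865670, minus strand) and Tef (chr15:81802423-81802672, plus strand) are given as examples that hold it. These output genes were at -0.72, -1.11 and -0.80, and a link between hexamer and difference was not tested. The E-box is in capitals, 166, 153 and 127 bases before the start.
Per1: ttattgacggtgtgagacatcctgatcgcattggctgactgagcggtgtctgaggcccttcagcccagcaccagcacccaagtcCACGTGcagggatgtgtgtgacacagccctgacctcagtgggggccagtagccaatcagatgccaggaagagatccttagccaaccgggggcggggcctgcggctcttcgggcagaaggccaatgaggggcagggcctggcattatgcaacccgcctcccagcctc
Bhlhe41: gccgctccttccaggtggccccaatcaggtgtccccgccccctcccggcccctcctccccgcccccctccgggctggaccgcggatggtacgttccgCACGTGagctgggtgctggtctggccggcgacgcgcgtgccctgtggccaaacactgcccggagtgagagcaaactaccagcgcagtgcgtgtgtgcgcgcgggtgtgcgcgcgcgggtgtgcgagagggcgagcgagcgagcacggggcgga
Tef: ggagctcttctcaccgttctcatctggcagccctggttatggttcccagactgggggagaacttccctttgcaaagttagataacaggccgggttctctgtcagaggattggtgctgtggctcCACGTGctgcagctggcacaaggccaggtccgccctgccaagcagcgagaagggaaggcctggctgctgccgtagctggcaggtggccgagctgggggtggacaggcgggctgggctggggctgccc

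Glucocorticoid-responsive genes, which the adrenal hormones corticosterone and cortisol induce, were lower in part as well. Of 16, 10 were below 0 (median -0.56) and 4 at least 2-fold lower, beside 10176 of all 19938 genes below 0 and 2.63% of those above the floor lower. Zbtb16, a strongly hormone-induced transcription factor, went from 10.89 to 9.37, Tsc22d3 (the leucine zipper GILZ) from 10.14 to 8.92, Klf9 from 9.94 to 8.88 and the sulfotransferase Sult1a1 from 8.87 to 7.34. Fkbp5, a chaperone of the receptor, was at -0.74 and the receptor Nr3c1 at -0.73. Mt1 (0.27), Mt2 (0.28) and Dusp1 (0.20), which other stresses also induce, were among the 6 above 0. Per1 is on both this list and that of the clock.

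**Figure D5:**
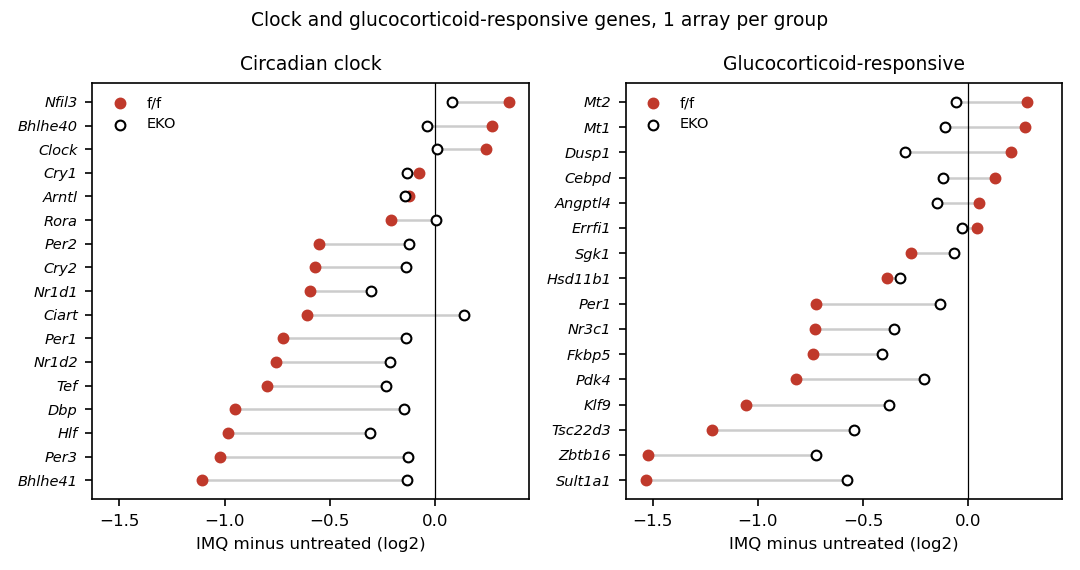
IMQ minus untreated (log2) of clock (left) and glucocorticoid-responsive genes (right) in f/f (red circles) and EKO ear (open circles), 1 array per group. The f/f values of the clock genes run from -1.11 to 0.35, the EKO values lie closer to 0 for most genes, and Zbtb16 and Sult1a1 are lowest in f/f.

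EKO medians of some of the same lists are given here beside the f/f values. The EKO pair shares no array with the f/f pair. In EKO, 69 genes (0.671% of 10285 above the floor) were higher and 10 (0.0972%) lower by the same rule. Of all 19938 genes 9355 (46.9%) were above 0 in EKO and 10525 below it. The clock list had a median of -0.13 there against -0.60 in f/f, and the glucocorticoid-responsive list -0.26 against -0.56. All 16 glucocorticoid-responsive genes were below 0 in EKO, against 10 in f/f. The wound keratins stood at 2.36 against 3.43, LCE3 at 1.60 against 3.51, SPRR at 1.08 against 3.72 and mitosis at 0.84 against 1.70. Ribosome biogenesis genes were at 0.24 against 0.75, and IL-1 and IL-36 family genes at 0.16 against 0.69. Other lists had similar medians, such as dermal collagens and matrix (-0.24 against -0.24) and cartilage (-0.28 against -0.27). The sebaceous list was at 0.25 against 0.18, and the Langerhans, dendritic and MHC class II list at -0.21 against -0.17. Of the 403 genes higher in f/f, 62 were at least 2-fold higher in EKO too, and of the 277 lower genes 10 were lower there. Direction was mostly shared, at smaller size. The sign matched between genotypes for 399 of the 403 and for 233 of the 277, to be read beside the EKO shares of all genes above and below 0. The median of the first set was 0.66 with EKO arrays and 1.40 with f/f arrays, and that of the second -0.44 and -1.23. Single genes ranged widely. Krt79 was at 1.10 in EKO against 1.06 in f/f, Defb6 at 1.17 against 1.34, Wfdc12 at 1.21 against 1.30 and Spink7 at 2.81 against 3.25. At the other end, Hbegf was at 0.70 against 2.71, Il33 at 0.14 against 1.62, Nrg1 at 0.01 against 1.32 and Itga3 at 0.28 against 1.24. These genes, and the lists compared here, were picked after their values were seen. With 1 array per group these differences between genotypes were not tested, and the f/f genes were chosen by their f/f values.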

How the data were processed

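Whole ear RNA was read on 4 Affymetrix arrays of 35556 probe sets, 1 array per group, grouped by their titles. The deposited values are log2 levels made by the authors with RMA, per the submitters' processing notes, which give no version. RMA subtracts background, forces the arrays onto a common distribution and combines the probes of a set, so it cannot show a shift of most genes and narrows differences between dim signals. Array medians lay between 6.52 and 6.57, and the number of arrays limits the precision. Of the probe sets, 21789 had 1 gene symbol in the platform annotation, 1621 had several and 12146 were not listed. Each of 19938 genes was represented by its brightest probe set (mean of 4 arrays), and RefSeq held 19856 of their identifiers.

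From these values the f/f difference, 61 gene lists with their medians and counts, neighbour order and promoter motifs were computed (Python 3.11.15, pandas 2.3.3). The genes studied and the lists were chosen with earlier results of these data known. Named were the 25 largest differences per direction, the 20 largest per direction above the floor on both arrays, list members at 2-fold or else up to 4 per list, Traf6, Tlr7 and members that a sentence on a list needs. Gene models, small RNAs, chemosensory receptors and antigen receptor segments were left out of the first 2 groups. Of the listed symbols 89 were not matched and not analysed here. Alternatives were median scaling, cyclic loess and quantile normalization (limma 3.58.1 in R 4.3.3), averaging probe sets within a gene, other floors and 1.5-fold or 4-fold thresholds. The counting step was tested on simulated data. Genes with several probe sets numbered 999, and among 18 such higher genes 16 had all others above 0.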

Additional observations from a re-analysis of the deposited data

Results flagged for a closer look

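Hair genes differed in direction between the genotypes, a difference that was not tested with 1 array per group. With IMQ their medians were below 0 in f/f ear and above 0 in EKO ear, so that the EKO difference exceeded the f/f difference by 1.77 (log2) for the median of hair shaft genes and by 1.53 for inner root sheath genes. For single genes the gap was 3.40 for Krtap6-1, 3.09 for Krtap8-1, 2.57 for Krtap7-1, 2.57 for Krtap4-16, 2.46 for Krtap3-3, 2.37 for Krtap15 and 2.37 for Prr9. Car6, a secreted carbonic anhydrase, showed a gap of 2.32.

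Probe sets that no gene in the comparisons represents also differed with IMQ in f/f ear. Of 1621 probe sets with several symbols, 778 were above the floor, 30 at least 2-fold higher (3.86%) and 25 lower (3.21%), against 3.82% and 2.63% of the named genes above the floor. The higher ones were mostly of histone, stefin, LCE3, SPRR2 and Ahcy genes. Of 12146 probe sets not listed in the annotation, 3851 were above the floor, 52 at least 2-fold higher (1.35%) and 45 lower (1.17%). These shares are near or below those of the named genes.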

How the results depend on the processing

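List medians kept their sign under every scaling and under averaging of probe sets, except the medians of LCE1 and prostaglandin genes, both within 0.1 of 0. Differences of the named genes counted as at least 2-fold kept their sign too. Members named only because a sentence on a list needs them were not recomputed. No paired analysis was possible because each group has 1 array and the labels carry no replicate numbers. For the same reason no array could be left out. With the floor required on both arrays, 221 genes were higher and 183 lower. At 1.5-fold the counts were 1074 and 1005, and at 4-fold 83 and 19. Median scaling gave 445 higher and 232 lower genes, or 65.7% higher against 59.3% of calls, cyclic loess 409 and 285, and quantile normalization 403 and 294, of which 386 and 265 were shared with the calls reported. These scalings moved the median of all genes by at most 0.0539. Of 244 alternative list medians 239 stayed within 0.1. The exceptions were envelope proteins (0.32 after cyclic loess, 0.31 after quantile normalization), desmosome genes (0.34) and adipocyte genes (-1.29) after quantile normalization, and S100 genes (0.16) after cyclic loess. The cause was not tested. Of 1156 alternative values of named genes 24 moved by more. Motif shares depended on the threshold, which leaves fewer promoters at 4-fold. At 4-fold AP-1 was in 17.7% of higher and 12.5% of lower promoters, NF-kB in 54.8% of higher, the E-box in 12.5% of lower and the TATA box in 32.3% of higher and 62.5% of lower. At 1.5-fold NF-kB was in 57.5% of lower promoters and the TATA box in 10.3% of higher and 13.5% of lower. Signal over background limits the 182 higher and 94 lower genes that were below the floor on 1 array.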

Other observations

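Families that the annotation reads with shared probe sets add to the epidermal and growth genes described, as values for the group and not for single genes. A probe set shared by the 6 LCE3 genes was at 9.32 untreated and 12.51 with IMQ, and one shared by Sprr2a3 and Sprr2a1 at 10.68 and 12.35. A probe set of Stfa2l1 and Stfa2 was at 6.19 and 9.67. Probe sets shared by core histone genes, made when DNA is copied, were at least 2-fold higher as well, one of the H3 genes (H3c1 and others) standing at 11.84 and 12.94. Probe sets of Ass1, which makes the arginine precursor argininosuccinate, differed by 1.18 and 1.27, and those of Ahcy, which clears S-adenosylhomocysteine, by 1.29 to 1.38. These probe sets were singled out after their values were seen.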
